A study of Capra hircus with 2 samples.

Results

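The miR-23, miR-24 and miR-27 miRNAs of the goat mammary gland were followed in small RNA libraries of early involution and early lactation. The members were the 3p arms of miR-23a, miR-23b, miR-24, miR-27a and miR-27b, with their 5p arms where tags were seen. They were chosen by sequence, counting tags of at least 18 nt whose start was that of the mature miRNA or 1 or 2 bases inside it, which had no mismatch and ended at most 3 bases beyond it. All 5 members were found, with 6 5p arms beside them, among 892 groups of tags. Tags were assigned to every group by this rule, but the reference tags of the other groups were picked in order of level. The involution library came from dairy goats whose weaning had been forced in late lactation 5 days earlier, at day 218 from parturition, and the lactation library from goats at day 10. Each library was 1 equal pool of RNA from 5 goats, so there was 1 library per stage, the spread between animals is unknown and no test between the stages was possible. Weaning and the time since parturition cannot be told apart in this design.

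These miRNAs are transcribed together from a pair of related loci in mammals. One carries miR-23a, miR-27a and a copy of miR-24, and the other miR-23b, miR-27b and a second copy of miR-24, whose mature 3p sequence is the same. In other mammals miR-27 is known for restraining fat cell formation and PPARG, miR-23 for targeting glutaminase, and the clusters as a whole for roles in blood vessel growth. In the goat RefSeq gene table (assembly ARS1.2), all 5 symbols were found. MIR23A and MIR27A were next to each other within the span of ZSWIM4. MIR23B, MIR27B and MIR24 followed each other within the span of C8H9orf3.

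The reference tags of the 3p arms, read from the libraries, are shown with the seed (bases 2 to 8, which pair with target mRNAs) in capitals, because the seed sets the members in 3 groups.
miR-23a: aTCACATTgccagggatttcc
miR-23b: aTCACATTgccagggattaccac
miR-24: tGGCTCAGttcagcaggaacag
miR-27a: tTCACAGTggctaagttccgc
miR-27b: tTCACAGTggctaagttctgc

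The miR-23 pair shared 1 seed and the miR-27 pair another. Within each pair the first 18 bases were identical, and the members parted at position 19 counted from the 5' end, by T19A between miR-23a and miR-23b and by C19T between miR-27a and miR-27b.

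The involution library held 7385833 clean tags and the lactation library 18031615, so lactation was sequenced 2.44 times deeper. Each level is the number of tags in 1000000 clean tags of its library (TPM, not scaled to length), with 95% Poisson intervals, and ratios of involution over lactation with conditional Clopper-Pearson intervals. PCR copies could not be recognised, so these intervals cover counting error only. Per the deposited logs, contamination with the 5' adaptor cost 14.03% of high-quality reads in involution and 0.0505% in lactation, and reads under 18 nt another 4.14% and 0.920%. The part of these differences in the results below was not tested.

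Both miR-23 members were much higher in involution, miR-27a was moderately higher, and miR-27b and miR-24 lay closer to equality. The level of miR-23a was 986 TPM in involution (964 to 1009) and 104 in lactation (99.4 to 108.9), a ratio of 9.48 (9.01 to 9.98). Its paralog miR-23b stood at 682 TPM in involution (664 to 701) and 108 in lactation (103 to 113), a ratio of 6.31 (5.98 to 6.65). The members of the pair were thus nearly level with each other in lactation, while miR-23a was the more abundant in involution.

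For miR-27a, the level was 1423 TPM in involution (1396 to 1450) and 582 in lactation (570 to 593), and the ratio 2.45 (2.38 to 2.51). That of miR-27b was 2240 TPM in involution (2206 to 2274) and 1675 in lactation (1656 to 1694), with a ratio of 1.34 (1.31 to 1.36). The most abundant member, miR-24, was the only one of the 5 with a ratio below 1. Its level was 4521 TPM in involution (4473 to 4570) and 5314 in lactation (5281 to 5348), 1.18-fold lower in involution (1.16 to 1.19).

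**Figure D1:**
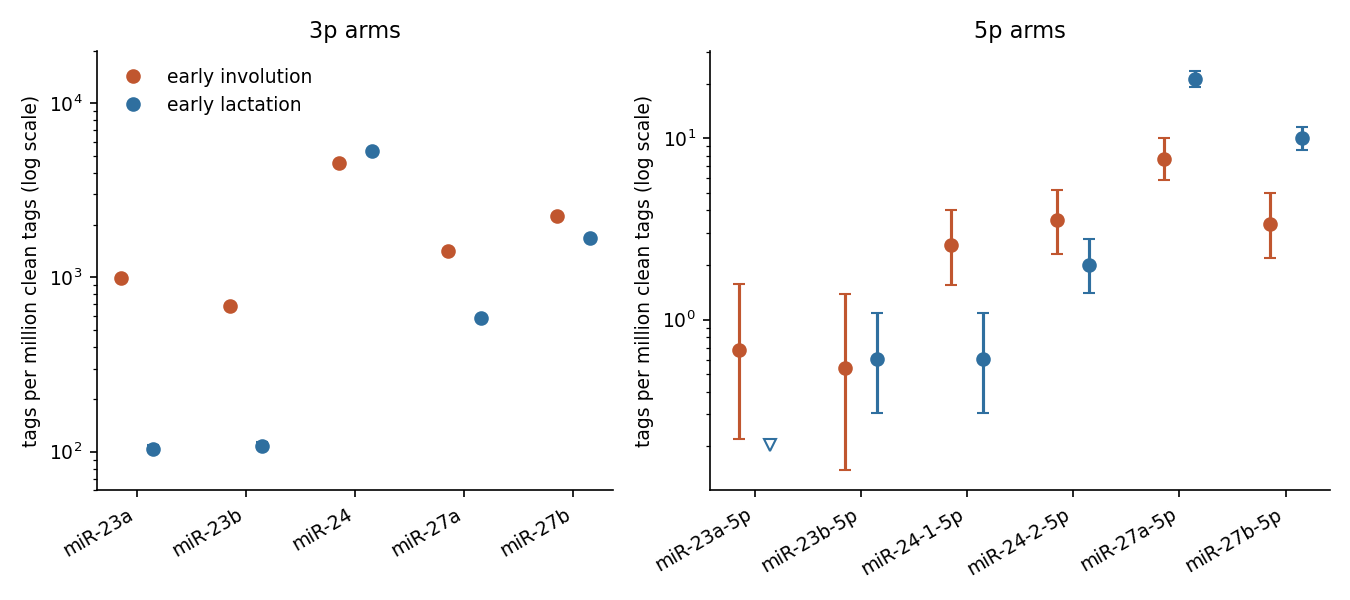
Levels of the 3p arms (left) and 5p arms (right) in TPM on log scales, with early involution and early lactation side by side and bars for 95% Poisson intervals, which are smaller than the points for the 3p arms. The open triangle marks the upper limit of the 95% Poisson interval, 0.205 TPM, for miR-23a-5p, which had no tag in lactation. The miR-23 pair stands far apart between the stages, at 986 and 682 TPM in involution and 104 and 108 in lactation, while miR-24 nearly coincides.

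The order of the 5 levels was miR-24, miR-27b, miR-27a, miR-23a and miR-23b in involution, with no neighbours' intervals overlapping. In lactation it was miR-24, miR-27b, miR-27a, miR-23b and miR-23a, and the intervals of the last pair overlapped. Together the 5 members took 9852 TPM in involution and 7783 in lactation, a ratio of 1.27 (1.25 to 1.28). Within that sum miR-24 made up 45.9% in involution and 68.3% in lactation, and miR-23a 10.01% and 1.34%. The share of miR-27b was 22.7% in involution and 21.5% in lactation, and that of miR-27a 14.4% and 7.47%.

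A tag group was called when it differed at least 2-fold with its whole interval beyond 1 and reached 10 TPM in a library. By that rule 3 of the 5 members were higher in involution, miR-23a, miR-23b and miR-27a, and 0 were lower. Of 631 other tag groups that reached the level, 40.4% were called higher and 5.07% lower, a background tilted towards involution that amounts to about 2 of 5. The median log2 ratio of the 5 members was 1.29 and that of the 612 other groups with tags in both libraries was 0.55. Among the 202 other groups of at least 100 TPM, 38.1% were called higher and 5.94% lower, with a median of 0.45.

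The tilt depended on scaling, in part by construction, since the factors used here are built to bring the typical ratio of the groups near equality. Under median-of-ratios factors 29.2% of the other groups were higher and 17.7% lower, at a median log2 ratio of -0.08, and with edgeR TMM factors 28.2% were higher and 21.1% lower, at -0.17. Under these factors miR-23a was 6.13 and 5.76 times higher in involution and miR-23b 4.08 and 3.83 times, still past 2-fold. The call of miR-27a was lost, at ratios of 1.58 and 1.49. The direction of miR-27b turned, at 1.16-fold and 1.23-fold lower, and miR-24 was 1.82-fold and 1.93-fold lower, short of a call but near the 2-fold limit.

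**Figure D2:**
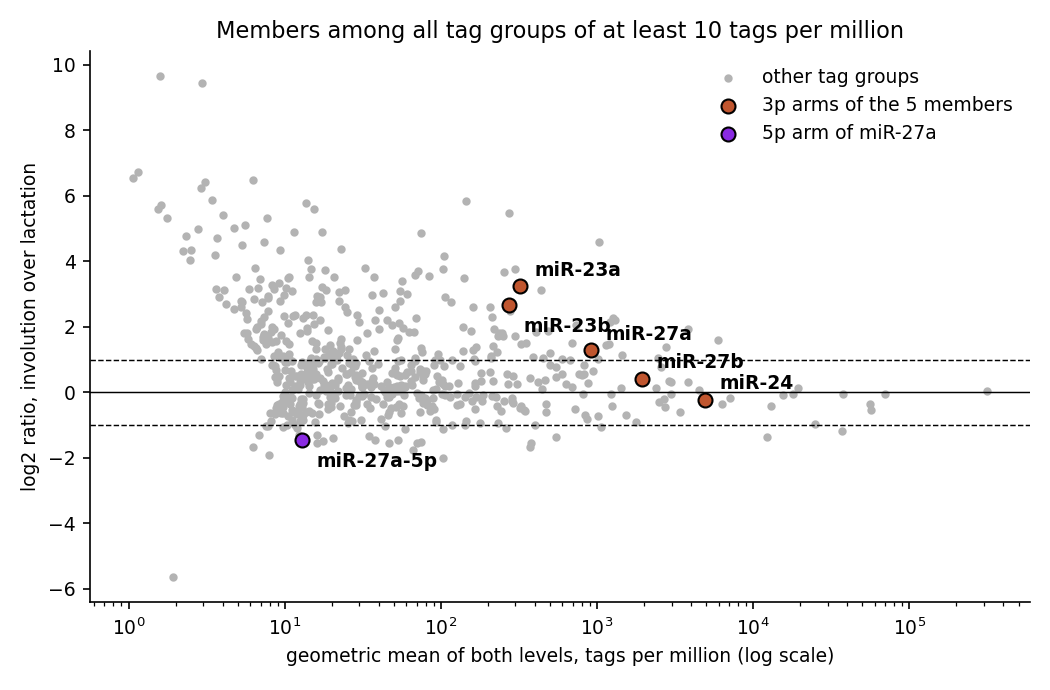
Log2 ratio of involution over lactation against the geometric mean of the 2 levels (log scale) for the tag groups of at least 10 TPM with tags in both libraries, with the 3p arms and the 5p arm of miR-27a marked and dashed lines at 2-fold. The ratios of the 3p arms run from 3.25 for miR-23a to -0.23 for miR-24, within the range of the other groups.

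Comparing the ratios of neighbours in a cluster cancels the scaling of the libraries. At the first locus the ratio of miR-23a was 3.88 times that of its neighbour miR-27a (3.66 to 4.11), and at the second that of miR-23b was 4.72 times that of miR-27b (4.46 to 4.99). Against miR-24, the ratio was 11.1 times larger for miR-23a (10.6 to 11.7) and 7.41 times larger for miR-23b (7.03 to 7.82). It was 2.88 times larger for miR-27a (2.79 to 2.96) and 1.57 times for miR-27b (1.54 to 1.61). The miR-24 tags could have come from either locus.

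Between paralogs, miR-23a had a larger ratio than miR-23b, and miR-27a a larger one than miR-27b. The ratio of miR-23a was 1.503 times that of miR-23b (1.40 to 1.62). Without tags past the reference end it was no larger (log2 difference -0.01). The references end at 21 nt for miR-23a and 23 nt for miR-23b, so this left out 57.0% and 17.4% of their involution tags. At equal lengths, the 21-nt tags had ratios of 6.59 for miR-23a and 4.52 for miR-23b, and the 22-nt tags 16.1 and 10.9. The 20-nt tags went the other way, at 6.02 and 8.44. The ratio of miR-27a was 1.83 times that of miR-27b (1.77 to 1.89). In shares, miR-23a made up 59.1% of the miR-23 tags in involution (58.2 to 59.98%) and 49.0% in lactation (47.4 to 50.6%). Likewise miR-27a made up 38.8% of the miR-27 tags in involution (38.3 to 39.4%) and 25.8% in lactation (25.4 to 26.2%).

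Paralogs that part at a single late base can be confused by tags that stop short or by misread bases, and both sources were counted. Tags of 18 nt that fitted both miR-23 members numbered 61 in involution and 26 in lactation, or 0.492% and 0.675% of the summed miR-23 tags. For miR-27 they numbered 107 and 58, or 0.394% and 0.142%. At position 19, bases other than those of the paralogs were carried by 0.126% of the miR-23 tags in involution and 0.175% in lactation, and by 0.183% and 0.0433% of the miR-27 tags. These shares are far below those of the less abundant paralog in each pair. Summed with the shared tags, the miR-23 pair stood at 1677 TPM in involution and 214 in lactation, a ratio of 7.85 (7.57 to 8.14). The miR-27 pair stood at 3677 and 2259, a ratio of 1.63 (1.60 to 1.65).

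The 5p arms, the opposite strands of the same precursors, had other ratios than the 3p arms for miR-27a, miR-27b, miR-23b and miR-24. Their reference tags are shown because the arms differed, with bases 2 to 8 in capitals. The miR-24 5p tags began 1 base before the conserved start, so their capitals are shifted by 1.
miR-27a-5p: aGGGCTTAgctgcttgtgagca
miR-27b-5p: aGAGCTTAgctgattggtgaac
miR-24-1-5p: gTGCCTACtgagctgatatca
miR-24-2-5p: gTGCCTACtgagctgaaacacag
miR-23a-5p: gGGGTTCCtggggatgggatt
miR-23b-5p: tGGGTTCCtggcatgctgat

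For miR-27a-5p there were 57 tags in involution and 384 in lactation, or 7.72 TPM (5.85 to 9.999) and 21.3 (19.2 to 23.5), 2.76-fold lower in involution (2.08 to 3.71) and called lower. The counts of miR-27b-5p were 25 in involution and 180 in lactation, or 3.38 and 9.98 TPM. Its ratio was 2.95-fold lower (1.93 to 4.68), but neither level reached the 10 TPM needed for a call. For miR-27a the 3p arm was thus higher and the 5p arm lower in involution, while for miR-27b the side of 1 on which the 3p ratio fell depended on the scaling. Per 5p tag there were 184 3p tags of miR-27a in involution and 27.3 in lactation, a 6.75-fold difference (5.10 to 8.93). For miR-27b there were 662 and 168, a 3.94-fold difference (2.59 to 5.995).

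The remaining 5p arms were scarce. Both miR-24 5p arms, which differ between its loci, were seen: miR-24-1-5p with 19 tags in involution and 11 in lactation, and miR-24-2-5p with 26 and 36. Their ratios were 4.22 (1.91 to 9.81) and 1.76 (1.02 to 3.002), above that of miR-24 itself. That of miR-24-1-5p was the larger, but the intervals overlapped. Which arm belongs to the miR-23a locus and which to the miR-23b locus was not determined, so these ratios were not set beside those of the paralogs. The 5p share of all miR-24 tags was 0.135% in involution (0.0982 to 0.180%) and 0.0490% in lactation (0.0360 to 0.0652%). For miR-23b-5p there were 4 tags in involution and 11 in lactation, a ratio of 0.888 (0.206 to 2.996), so the ratio of the 3p arm was 7.10 times that of the 5p arm (2.26 to 22.3). For miR-24 the difference ran the other way: the 3p ratio was 0.202 times that of miR-24-1-5p (0.0960 to 0.424) and 0.482 times that of miR-24-2-5p (0.291 to 0.799). For miR-23a-5p there were 5 tags in involution and 0 in lactation, where a count of 0, taken to allow 3 counts, allows up to 0.166 TPM.

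**Figure D3:**
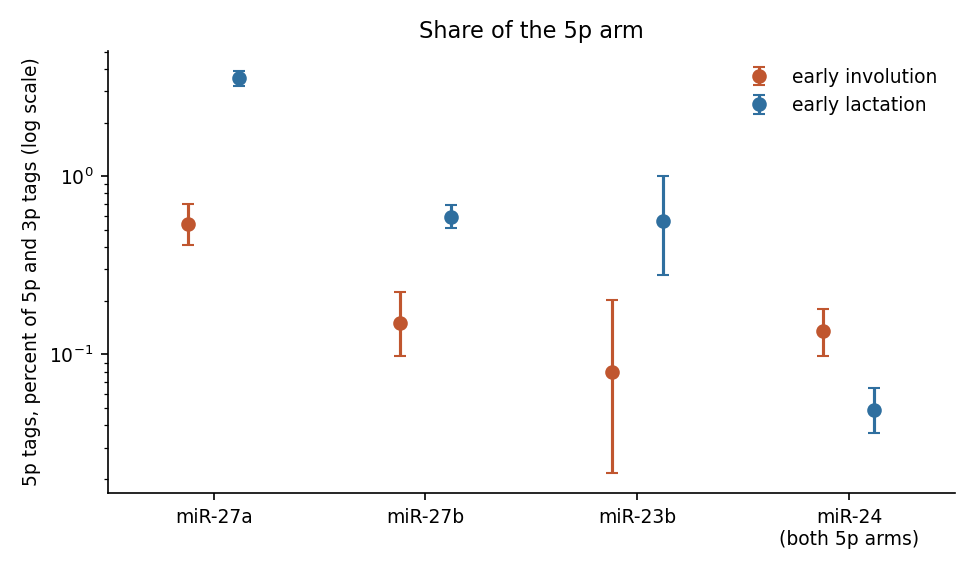
Tags of the 5p arm as a percentage of 5p and 3p tags together (log scale) in early involution and early lactation, with 95% Clopper-Pearson intervals, for miR-27a, miR-27b, miR-23b and miR-24. The share was 0.540% in involution and 3.53% in lactation for miR-27a and 0.151% and 0.593% for miR-27b, while that of miR-24 was higher in involution.

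The 3' ends of the members differed between the stages as well. In lactation 87.6% of the miR-27a tags ended at the last base of the reference (86.9 to 88.2%), against 58.5% in involution (57.5 to 59.4%). The difference of -29.1 points was exceeded in that direction by 4 of the 142 other tag groups with at least 1000 tags in both libraries, whose median was -0.86 points. For miR-27b the share was 51.7% in involution and 69.4% in lactation, and for miR-23a 32.3% and 46.5%. By contrast it was 23.5% and 20.7% for miR-24, whose commonest tag was 1 base longer than the reference in both stages, and 12.1% and 12.9% for miR-23b.

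Shorter and longer tags of miR-27a both took larger shares in involution. Shorter tags made up 25.2% in involution and 6.65% in lactation, and longer tags 16.3% and 5.78%. Reads under 18 nt, removed before deposit, were also the commoner in involution, as given above, and their part in these shares was not tested. For miR-27b the shares of shorter tags were 29.1% and 22.3%, and those of longer tags 19.2% and 8.34%. The pattern of miR-23a was another: its longer tags took 57.0% in involution and 38.8% in lactation, and its shorter tags 10.6% and 14.7%. In miR-24 the longer tags took 57.5% in involution and 62.8% in lactation. Most tags of miR-23b ended before the last base of its reference, 70.4% in involution and 64.7% in lactation. That reference is 23 nt long and the miR-23a one 21 nt, so the classes of the pair are cut at different bases. Ends at base 22 took 45.9% in involution and 27.5% in lactation for miR-23a, and 31.3% and 18.1% for miR-23b.

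**Figure D4:**
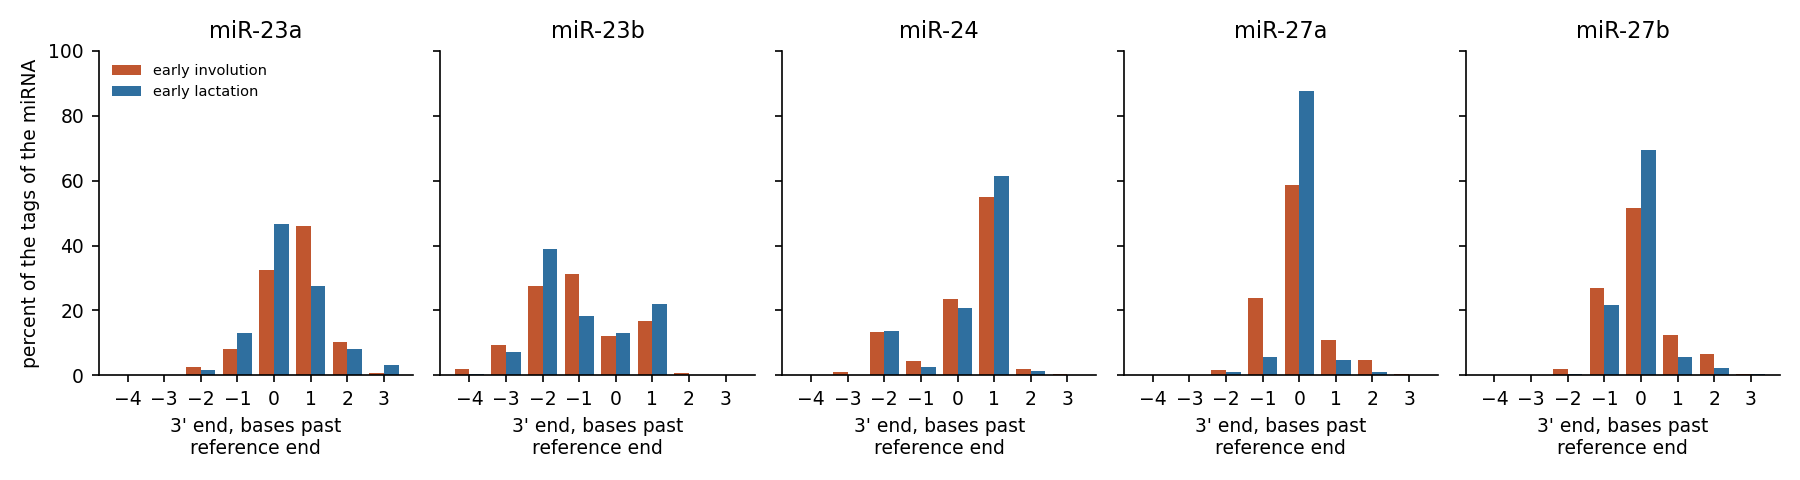
Share of the tags of each member by the position of the 3' end, in bases past the end of the reference tag (0 is the reference end, negative values are shorter tags), for early involution and early lactation. The bar of miR-27a at 0 reaches 58.5% in involution and 87.6% in lactation, and the commonest end of miR-23a lies at 1 base past the reference in involution and at 0 in lactation.

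As a result, single tags of a member differed widely in ratio. The following tags are shown because they carried the largest part of these shifts.
miR-23a, 21 nt: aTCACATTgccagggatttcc
miR-23a, 22 nt: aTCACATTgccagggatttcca
miR-23b, 21 nt: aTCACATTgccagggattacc
miR-23b, 22 nt: aTCACATTgccagggattacca
miR-27a, 20 nt: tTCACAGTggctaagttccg
miR-27a, 21 nt: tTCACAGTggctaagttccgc

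The 22-nt tag of miR-23a was at 447 TPM in involution and 27.7 in lactation, a ratio of 16.1 (14.7 to 17.8), and was the commonest miR-23a tag in involution, whereas in lactation the 21-nt tag was. The 21-nt tag was at 318 and 48.2 TPM, a ratio of 6.59 (6.09 to 7.13). In miR-23b the 22-nt tag was 10.9 times higher in involution (9.68 to 12.3) and the 21-nt tag 4.52 times (4.13 to 4.95). Between the 21-nt and 22-nt tags of each miR-23 member, the tag that gained more was the one that ended in A. The 20-nt tag of miR-23b, which ended in C, also gained more than its 21-nt tag, with a ratio of 8.44 (6.96 to 10.3).

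The 20-nt tag of miR-27a was at 335 TPM in involution and 32.8 in lactation, a ratio of 10.2 (9.33 to 11.2). Its 21-nt tag, identical to the reference, was at 828 and 508 TPM, a ratio of 1.63 (1.58 to 1.68). Counted by this tag alone miR-27a would not be called. The identical tag of miR-27b was at 1153 TPM in involution and 1160 in lactation, a ratio of 0.994 (0.970 to 1.02), so the higher level of miR-27b in involution lay in its end variants. Its 20-nt tag had a ratio of 1.66 (1.59 to 1.72) and its 22-nt tag one of 2.88 (2.69 to 3.09). For miR-24 the main tag of 23 nt was at 2181 TPM in involution and 2876 in lactation, a ratio of 0.758 (0.745 to 0.772), and the 22-nt reference tag had a ratio of 0.965 (0.940 to 0.991).

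**Figure D5:**
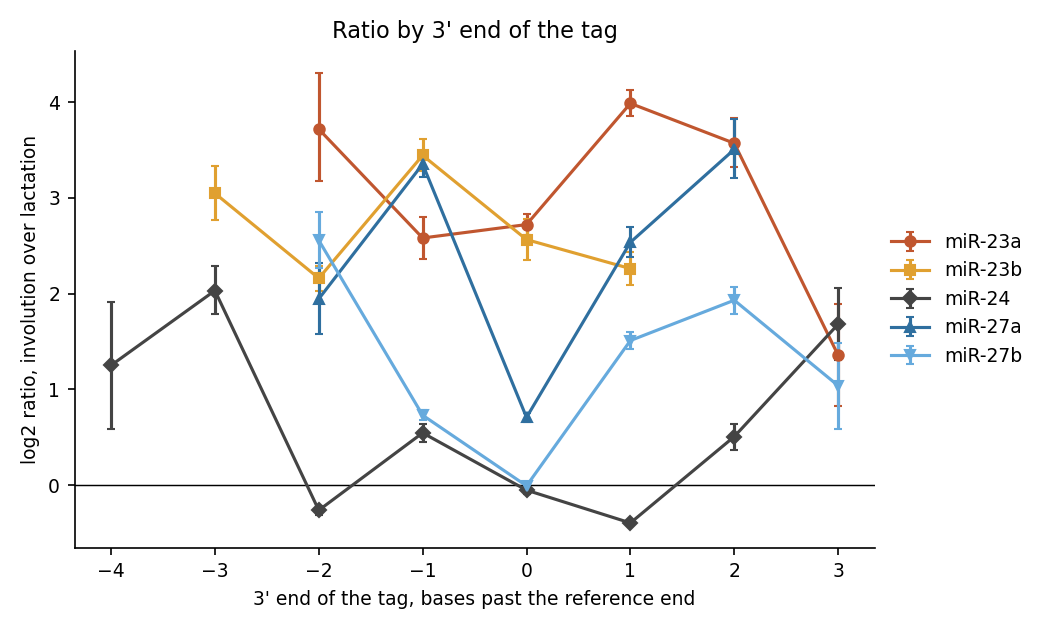
Log2 ratio of involution over lactation for the tags of each member by the position of the 3' end relative to the reference end, with 95% counting intervals, for positions with at least 20 tags in both libraries. The curves of miR-27a and miR-27b are lowest at the reference end, at 0.71 and -0.01, and those of miR-23a and miR-23b stay above 1 throughout.

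Tags ending in A took a larger share in involution for all 5 members. The share was 52.2% in involution and 31.7% in lactation for miR-23a, a gain of 20.4 points that was exceeded by 4 of the 142 other groups. For miR-23b it was 35.1% and 19.8%, with 7 of the 142 above its gain of 15.3 points. The gains were 7.84 points for miR-27b, 5.71 for miR-27a and 2.82 for miR-24, with 16, 22 and 39 of the others above them. The median of the other groups was 0.70 points, and 87 of the 142 gained. Tags that matched a member over its first 19 bases and then carried other bases were not counted for it, and they too were commoner in involution. They equalled 13.1% of the sum in involution and 8.63% in lactation for miR-27b, and 8.82% and 2.64% for miR-27a. For miR-24 the shares were 4.08% and 2.61%, for miR-23b 7.05% and 6.20%, and for miR-23a 2.24% and 1.42%. The commonest such tag of miR-27b, ttcacagtggctaagttctga, had 1605 reads in involution and 1720 in lactation. These are raw counts, and the lactation library was 2.44 times deeper. Changed ends were not counted for the other groups. The A that ended the 22-nt tag of miR-23b lay within its reference, and that of the 22-nt tag of miR-23a lay past its reference. Without a genome sequence, bases added after cleavage could not be told from bases of the precursor.

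Within the counted tags the 5' ends, which set the seed, varied little. Tags that began before the reference start were not counted, so variation in that direction could not be seen. Tags that lacked 1 or 2 bases at the 5' end made up 3.71% of miR-23b in involution (3.21 to 4.27%) and 4.36% in lactation (3.49 to 5.36%), the highest share among the 5. For miR-27a they took 0.657% in involution and 0.162% in lactation, for miR-27b 0.556% and 0.189%, for miR-24 0.476% and 0.290%, and for miR-23a 0.645% and 0.586%. In mean length the members changed by 0.19 nt for miR-23a (21.55 nt in involution, 21.36 in lactation) down to -0.08 nt for miR-24 (22.25 and 22.33). The quartiles of the other groups lay between -0.10 and 0.10 nt.

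Among 34 other miRNAs recognised by name, the nearest in their pair of levels are given as a description over 2 libraries. For miR-23b this was miR-205, a miRNA of basal epithelium, at 653 TPM in involution and 117 in lactation. For miR-23a it was also miR-205, followed by miR-145 of smooth muscle at 1283 and 147. The nearest to miR-24 was miR-126-3p of endothelium, at 5586 TPM in involution and 7226 in lactation. Nearest to miR-27a and miR-27b were the epithelial miR-200a, at 999 and 680, and miR-200b, at 3234 and 2562.

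Other miRNAs studied for milk fat genes in mammary cells moved in both directions: 4 of 10 were higher, 1 was lower and 5 were not called, with a median log2 ratio of 0.77. The most abundant, miR-148a, was at 24683 TPM in involution and 56042 in lactation, followed by miR-103 at 15126 and 15990, which was not called, and miR-26a at 10388 and 3409. Of 9 miRNAs known from blood vessels, 5 were higher and 4 were not called, with a median of 1.86. The endothelial arms moved apart, miR-126-5p at 1499 TPM in involution and 359 in lactation and miR-126-3p as given above. These lists share members with each other and with the cell type lists, and their counts stand beside the 40.4% of all other groups called higher. Their calls hold for the scaling to clean tags and were not repeated under median-of-ratios or TMM factors, which lower every ratio.

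The gland holds several cell types, and in such bulk RNA fewer cells of a type and less RNA per cell cannot be told apart. The summed markers were 7085 TPM in involution and 7584 in lactation for endothelium (1 of 2 higher), and 25737 and 20633 for epithelium (3 of 7 higher), with median log2 ratios of 0.85 and 0.55. Among the epithelial markers miR-375 was at 5039 TPM in involution and 208 in lactation. The most abundant epithelial marker, miR-200c, was at 11255 and 15212 and was not called. For smooth muscle and stroma the summed markers were 320861 and 310410 (2 of 4 higher, median 1.80), of which miR-143 alone made up 318808 and 309788. For leukocytes they were 1445 and 1352 (3 of 4 higher, median 2.12), with miR-155, the most abundant, at 648 and 1152. For erythroid cells they were 3136 and 923 (2 of 3 higher, median 2.21). At the scaling to clean tags none of these markers was called lower, beside 40.4% of all other groups called higher and 5.07% lower. The marker calls were not repeated under median-of-ratios or TMM factors, which lower every ratio. The part of any cell type in the levels of the members was not tested.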

How the data were processed

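Small RNA was sequenced from pooled goat mammary RNA, 1 library per stage. Per the labels, size-selected RNA was ligated to adaptors, amplified and sequenced (Solexa). Per the deposited description, the authors trimmed 3' adaptors and filtered out poor reads, 5' adaptor products, short tags and polyA, and deposited raw counts of each distinct clean tag. The sources used here name no aligner or build. Tags ran from 18 to 44 nt. The deposited logs were tied to libraries by their equal clean-read totals.

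The plan assumed a RefSeq table of mature miRNAs, which was not used here. Members were recognised by first base, seed and, for paralogs, the base at position 19, with the length of the conserved mature miRNA. The reference is the most abundant tag that meets these. For 5p arms it is the most abundant such tag of 20 to 24 nt. The miR-24 5p tags began 1 base before the conserved start. The background was built by taking further tags of 20 to 24 nt in order of level, from 2 TPM up. End variants, shifted starts, and tags with up to 2 changed bases and below 5% of a larger tag, were set aside (7193 of 8081). The groups may include fragments of other RNAs. Tags that fitted several groups (0.0527% in involution, 0.0424% in lactation) were counted apart. Of 35 listed miRNAs 34 were recognised by seed and single bases, the exception being miR-142-5p. Named miRNAs are the members, the nearest by level among listed miRNAs of at least 100 TPM (the plan took all mature miRNAs), and up to 3 of the most abundant of a list.

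Intervals are exact (Clopper-Pearson, Poisson), or normal approximations on the log scale for differences of log2 ratios. A count of 0 allows 3 counts, or 0.406 TPM in involution and 0.166 in lactation. Adaptor ligation favours some ends, so levels of different miRNAs are compared with less certainty than 1 tag between libraries. Members and lists were chosen with earlier results of these data known. Alternatives covered scaling, assignment, tag length, depth and the level filter, and 3 of them were chosen after seeing the data. The procedure was run on simulated Poisson counts, the counting model that the intervals assume. The simulation held no spread between animals and no PCR copies, so it covers counting error only. Python 3.11.15, numpy 2.4.6, scipy 1.17.1, matplotlib 3.10.9, R 4.3.3 and edgeR 4.0.16 (TMM factors only) were used.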

Additional observations from a re-analysis of the deposited data

How the results depend on the processing

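Over 16 alternatives, 3 of them chosen after seeing the data, miR-23a and miR-23b stayed called higher and miR-24 and miR-27b uncalled; 3 members were called higher under 13 alternatives and 2 under the other 3. The log2 ratio of miR-27a fell short of a call with identical tags alone (0.70), median-of-ratios (0.66) and TMM factors (0.57), and that of miR-27b turned to -0.0082, -0.21 and -0.30. The call of miR-27a-5p at -1.46 needed a minimum level under 100 TPM.

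The log2 difference of miR-23a and miR-27a was 1.61 without tags past the reference end. That of miR-23b and miR-27b was 2.51 there and 2.57 with identical tags. For miR-23a and miR-23b it was -0.0101 without longer tags, where the sign turned, and 0.16 with identical tags. Identical tags also gave 0.71 for miR-27a and miR-27b and 2.32 for the arms of miR-27a. Leaving out or keeping longer tags changes these by construction, since the members differ in their ends.

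The members' median was 0.70 with identical tags, 1.12 without longer tags, 1.37 with 1 mismatch allowed, 1.36 scaled to grouped tags, 0.66 by median-of-ratios and 0.57 by TMM. The other groups' median was -0.082 and -0.17 under these 2 scalings, and their share called lower 17.7% and 21.1%, or 9.09% with identical tags. A change of scaling moves every log2 ratio by the same amount. Median-of-ratios and TMM factors are built to bring the typical ratio of the groups near equality, so these shifts follow by construction. The cause of the shifts with identical tags, without longer tags and with a mismatch allowed was not tested. No paired analysis was possible because each stage has 1 library. Depth limits the 5p arms: those of miR-23 and miR-24 had 36 or fewer tags in each library, and miR-27b-5p had 25 in involution.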
